A study of Mus musculus with 10 samples.

Results

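The mitochondrial ribosomal protein genes encode the protein part of the mitochondrial ribosome. They were taken as every gene whose symbol begins with Mrpl or Mrps followed by a digit, with pseudogene symbols left out, and 77 of the 13091 genes listed met this rule. Of these, 48 were large subunit (Mrpl) genes and 29 were small subunit (Mrps) genes. The mRNA came from mouse neutrophils of the 129-SVEV strain, grown from bone marrow progenitors that had been immortalized with an estrogen-dependent HoxB8 and were matured in culture once estrogen was removed. The 10 libraries comprised 2 unstimulated and 2 LPS-treated libraries from clonal lines of wild-type (Vim+/+) mice, and 3 unstimulated and 3 LPS-treated libraries from clonal lines of vimentin-deficient (Vim-/-) mice. LPS was given at 25 ng/mL for 1 hour. All lines carried the HoxB8 transgene, each line was a single clone, and the sample labels name the Vim-/- genotype as a knockdown where the study's methods derive the lines from knockout mice.

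The mitochondrial ribosome translates the few proteins that the mitochondrial genome encodes, which are core subunits of the respiratory chain and of ATP synthase. Its RNAs are made inside the organelle, whereas its proteins are encoded in the nucleus, translated in the cytosol and imported. The large subunit forms the peptide bond and holds the exit tunnel, and the small subunit holds the mRNA and the decoding site. Many of the proteins descend from bacterial ribosomal proteins, and the others were added in the mitochondrial lineage. Mature neutrophils draw most of their ATP from glycolysis and hold few mitochondria.

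The value used for each gene was the authors' mean normalized count, the average over all 10 libraries of counts scaled for library size. It was identical in the 4 tables examined. Being a single number per gene, it has no replicate error and gives neither genotype nor treatment, and the depth of the libraries is unknown. The tables also hold fold changes and p-values of the authors' own comparisons of LPS and genotype, which were left out by choice. The effects of LPS and of vimentin on these genes were therefore not analysed here, and the labels were not checked against the level of Vim. Because 6 of the 10 libraries were Vim-/-, the average weights that genotype more. All differences below are between genes and are descriptions without a test, since genes are not replicates. The neutrophil identity of the pooled RNA was checked with 10 marker genes, all of which were listed, with mean normalized counts from 11373 (Ly6g) to 1290830 (S100a9). Markers of other cells were listed in part. The mast cell gene Cpa3 had a mean normalized count of 26296, the macrophage genes Adgre1 and Csf1r had 10073 and 3269, the basophil gene Mcpt8 had 2802, and Mrc1 and Cd79a had 90.9 and 83.8. The markers Cd3e, Cd4, Hbb-bs, Flt3 and Zbtb46 were not listed. The part of such cells in the levels of the mitochondrial ribosomal protein genes was not tested.

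All 77 mitochondrial ribosomal protein genes were expressed, at mid-range levels. Their mean normalized counts ran from 95.0 for Mrps6 to 4395 for Mrpl45, with a median of 1109 against 907 for all genes listed and 1214 for the listed protein-coding genes. Of the 77 genes, 49 lay above the median of the whole list and 28 below it, and 76 had a mean normalized count of at least 100. The list held every protein-coding gene that the rule finds in the GENCODE M21 annotation (78 genes) other than Mrpl58, which was listed under an older symbol. Together they summed to 96320, which was 0.174% of the sum over all genes.

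Because a long transcript yields more fragments than a short one at the same abundance, levels of different genes were compared after division by transcript length. The mean normalized count was divided by the length in kb of the longest transcript in the GENCODE M21 annotation, which gave a value for all 77 genes. The median level was 584 per kb, and the middle part of the genes, from the lower to the upper quartile, ran from 272 to 1081 per kb. On this scale the highest gene, Mrps21, and the lowest, Mrpl47, differed 83.2-fold. Among 12023 listed genes with an annotated transcript, the median level was 309 per kb, and 54 of the 77 exceeded it. Against the 351 per kb of the 11162 protein-coding genes, 51 of the 77 were higher. The typical member stood at percentile 63.6 of the genes with a transcript. The genes are compact: the median longest transcript was 1849 bases and the median coding sequence 576 bases, against 3352 and 1380 bases in all protein-coding genes. Across the 77 genes, mean normalized count had little rank correlation with transcript length (Spearman's rho -0.05) or with number of exons (rho -0.02), in values that share the same pooled libraries.

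**Figure D1:**
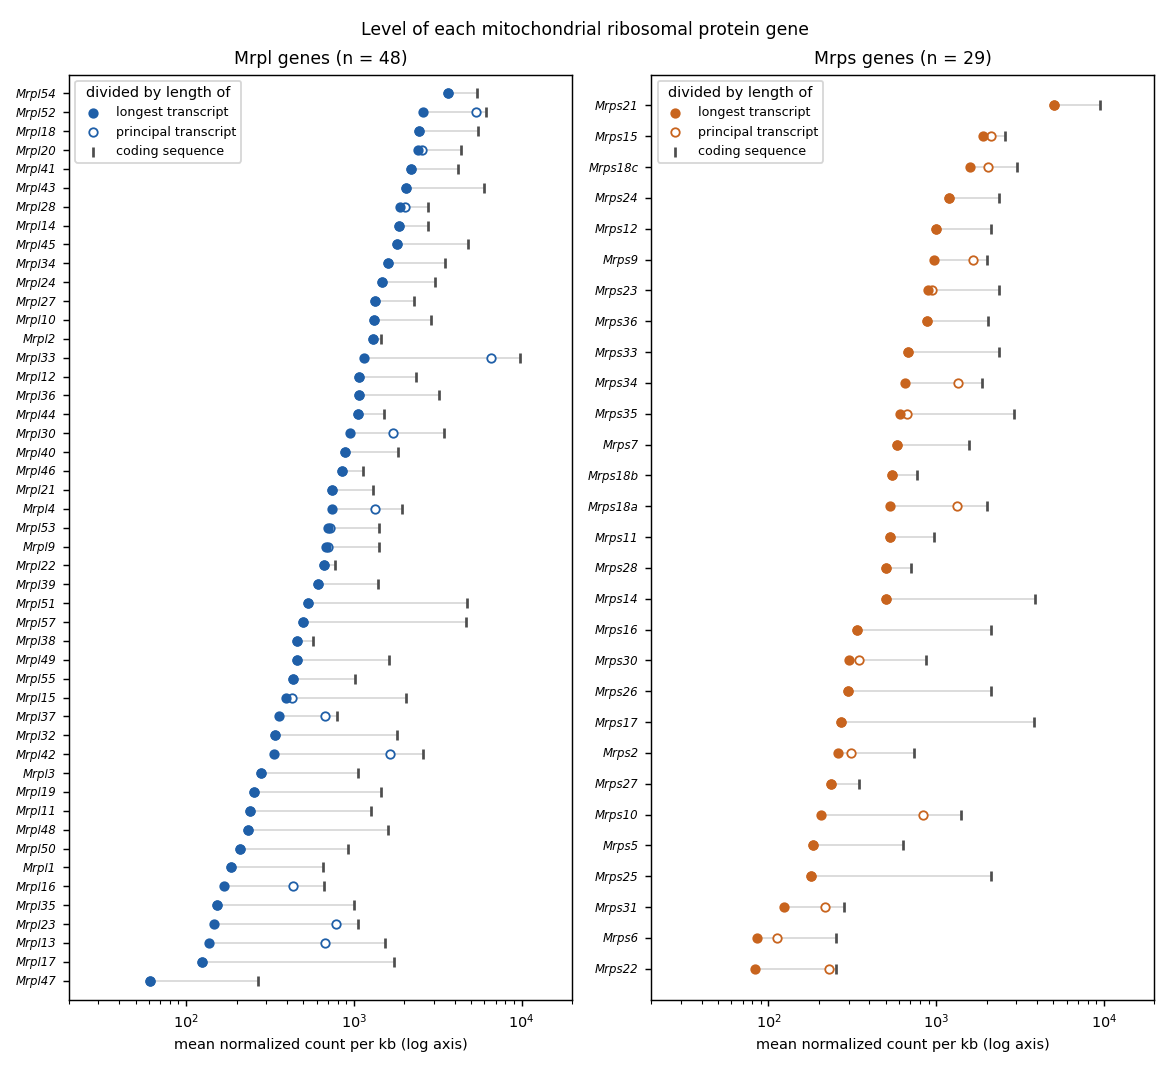
Level of each of the 48 Mrpl (blue) and 29 Mrps (orange) genes, as mean normalized count per kb on a log axis. Filled circles divide by the longest transcript, open circles by the principal transcript (hidden where both are the same length) and ticks by the coding sequence; no error can be drawn because each gene has a single pooled value. Mrps21 and Mrpl54 lead on the longest transcript, Mrpl47 is lowest, and Mrpl33 moves most between transcript models, from 1144 to 6563 per kb.

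Among large subunit genes, the 5 highest per kb of longest transcript were Mrpl54, Mrpl52, Mrpl18, Mrpl20 and Mrpl41. Mrpl54 reached 3620 per kb from a mean normalized count of 2186, and it encodes a protein with no bacterial counterpart. Mrpl52, also without a bacterial counterpart, had 2602 per kb. Mrpl18 and Mrpl20, whose proteins belong to bacterial families, had 2436 and 2412 per kb. The protein of Mrpl18 belongs to a family that binds 5S rRNA in bacteria. Mrpl41 had 2182 per kb. The lowest of these 5, Mrpl41, stood at percentile 86.3 of the genes with a transcript.

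The 5 lowest large subunit genes per kb of longest transcript were Mrpl47, Mrpl17, Mrpl13, Mrpl23 and Mrpl35. Mrpl47, of the bacterial L29 family near the mouth of the exit tunnel, was lowest at 60.6 per kb, from a mean normalized count of 204. Mrpl17 had 125 per kb, although its mean normalized count was 911, because its longest annotated transcript spans 7300 bases. Per kb of coding sequence it had 1725. The transcript model mattered for Mrpl13 and Mrpl23, which had 136 and 147 per kb of the longest transcript but 670 and 787 per kb of the principal transcript. Mrpl35 had 152 per kb on both. The low place of Mrpl13 and Mrpl23 thus depended on the transcript model and that of Mrpl17, whose longest transcript is also the principal one, on counting its untranslated sequence, whereas Mrpl47 was also among the lowest per kb of coding sequence.

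Among small subunit genes, Mrps21 was the highest per kb of longest transcript, and it was also the highest of all 77. It had 5042 per kb, from a mean normalized count of 2461 and a transcript of 488 bases. However, Mrpl33 and Mrpl52 were higher than Mrps21 by principal transcript, and Mrpl33 was higher by coding sequence. Mrps15 followed with 1913 per kb, Mrps18c with 1594, Mrps24 with 1187 and Mrps12 with 1000. All 5 encode proteins of bacterial families, and Mrps12 belongs to the family at the decoding site in which streptomycin resistance arises in bacteria. The gap from Mrps21 to Mrps15 was wider than any other gap between neighbours at the upper end of either subunit.

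The 5 lowest small subunit genes per kb of longest transcript were Mrps22, Mrps6, Mrps31, Mrps25 and Mrps5. Mrps22 had 83.1 per kb from a mean normalized count of 274. Mrps6 had 85.2 per kb and the lowest mean normalized count of the group, and its exons overlap those of Slc5a3 on the same strand, so reads of these genes may not have been told apart. Mrps31 had 125 per kb. Mrps25 had 180 per kb of a 6073-base transcript but 2127 per kb of coding sequence, above the median of the members on that scale. Mrps5 had 184 per kb. Mrps22, Mrps31 and Mrps25 have no bacterial counterpart, whereas Mrps6 and Mrps5 do.

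The order of genes depended in part on the length chosen. For 50 of the 77 genes the longest transcript was also the principal one, and for 15 it was more than 1.5 times as long. Levels per kb of longest and of principal transcript had a rho of 0.90 across the 77 genes, and levels per kb of longest transcript and of coding sequence had 0.71. Mrpl18, Mrpl20, Mrpl41, Mrpl43, Mrpl45, Mrpl52, Mrpl54 and Mrps21 were among the 15 highest by all of longest transcript, principal transcript and coding sequence. Mrpl1, Mrpl47, Mrps5, Mrps6, Mrps22, Mrps27 and Mrps31 were among the 15 lowest by all of them. These 8 and 7 genes mark the ends of the range that none of these 3 lengths displaced.

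The large and small subunits were expressed at similar levels. The median large subunit gene had 694 per kb of longest transcript, with a range from 60.6 to 3620, and the median small subunit gene had 529, with a range from 83.1 to 5042. The ranges overlapped along almost their whole length. The ratio of the medians, large over small, was 1.31 by longest transcript and 1.41 by principal transcript, but it turned to 0.875 by coding sequence and to 0.964 in the genes free of exon overlap, and it was 1.002 by shortest coding transcript. Without division by length the medians were 1122 and 1091 mean normalized counts, a ratio of 1.03. No direction between the subunits therefore held on all scales. In total, the 48 large subunit genes summed to 64929 mean normalized counts and the 29 small subunit genes to 31391, sums that also carry the difference in gene number.

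Symbol and place in the ribosome differ for 3 genes. Mrps30 and Mrps18a carry small subunit symbols, but their proteins sit in the large subunit, and the protein of Mrps36 is now known as a component of the ketoglutarate dehydrogenase complex. Mrps30 had 302 per kb, Mrps18a 531 and Mrps36 884. With Mrps30 and Mrps18a moved to the large subunit and Mrps36 left out, the ratio of the medians was 1.30. Mrps18a belongs to a family of 3 paralogs of the bacterial S18 protein, of which Mrps18b had 542 and Mrps18c 1594 per kb. By principal transcript Mrps18a, Mrps18b and Mrps18c had 1333, 542 and 2049 per kb, so Mrps18c was the highest of the family on both lengths.

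Grouped by place and ancestry, the large subunit held 30 proteins of bacterial families with a median of 712 per kb and 20 others with a median of 574. The small subunit held 16 of bacterial families with a median of 517 and 10 others with a median of 419. Mrps18a and Mrps18b, which current nomenclature sets apart from bacterial S18 in spite of their kinship with it, were counted with the others. By principal transcript the corresponding medians were 766 and 784 in the large subunit and 557 and 419 in the small subunit, so the order of the families in the large subunit turned with the transcript model. In each group the quartiles spanned a far wider interval than the gap between the medians.

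**Figure D2:**
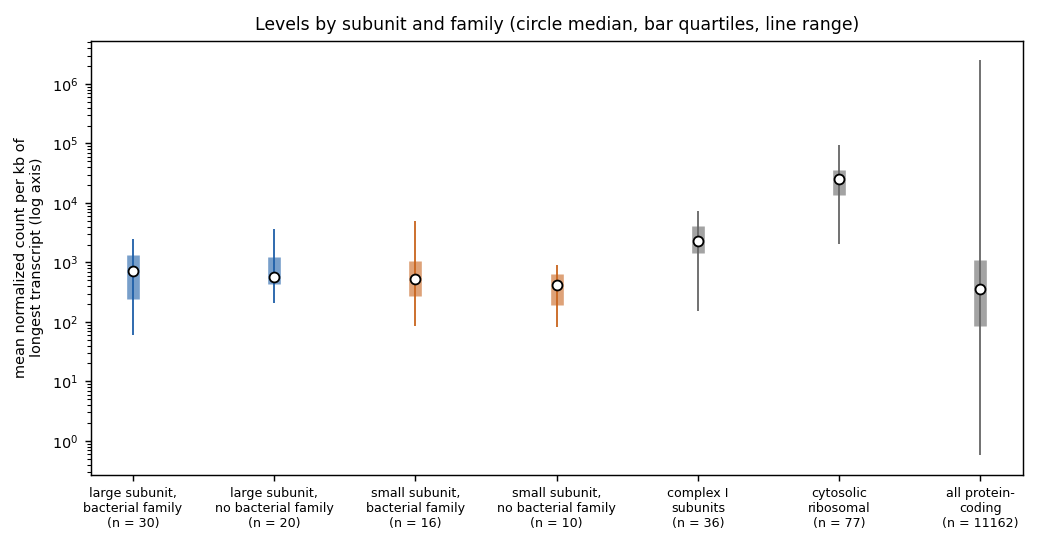
Mean normalized count per kb of longest transcript, on a log axis, for the proteins grouped by the subunit they sit in and by bacterial ancestry, beside complex I subunits, cytosolic ribosomal proteins and all protein-coding genes. Circles are medians, bars run from lower to upper quartile and lines from the lowest to the highest gene; the 4 mitochondrial ribosome groups, with medians from 419 to 712, overlap one another, and these medians lie below those of complex I (2288) and of the cytosolic ribosome (25318), although 3 of the 4 groups reach above the complex I median with their highest gene.

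Genes chosen for function were spread over the range. Mrpl10 and Mrpl12, whose proteins form the stalk that recruits translation factors, had 1328 and 1081 per kb, and Mrpl11, at the base of the stalk, had 239. Around the exit tunnel, Mrpl45, which helps anchor the ribosome to the inner membrane, had 1808 per kb, Mrpl24 had 1468 and Mrpl23 had 147. Mrpl45 had the highest mean normalized count of the 77 genes. Stalk and tunnel genes thus each included high and low members per kb of longest transcript. Mrpl58, a peptidyl-tRNA hydrolase built into the large subunit, was listed under its older symbol Ict1 with a mean normalized count of 741, and was not counted among the 77.

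The other genes of mitochondrial translation were listed as well. All 5 mitochondrial ribosomal proteins without an Mrp symbol were present. Dap3, a GTP-binding protein of the small subunit, had 608 per kb, which was also the median of the 5. Aurkaip1 and Chchd1 had 2792 and 1997 per kb, whereas Ptcd3 and Gadd45gip1 had 265 and 231. The 9 translation factors were lower, with a median of 207 per kb. The elongation factor Tufm was the highest of them at 895 per kb, followed by its exchange factor Tsfm at 402 and by Gfm1, the translocase, at 393. The initiation factors Mtif2 and Mtif3 had 255 and 175 per kb. Gfm2 and Mrrf, which recycle ribosomes, had 177 and 207, and the release factors Mtrf1 and Mtrf1l had 86.9 and 94.6. In this list the factor that delivers aminoacyl-tRNA to the ribosome stood above the median ribosomal protein, and the factors for initiation, recycling and release stood below it.

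Assembly and rRNA factors had a median of 229 per kb over the 19 of 20 with an annotated transcript. Rbfa, which matures the small subunit, had 2738 per kb, and the RNA-binding protein Grsf1 had 1495. These were the only members of the list above 500 per kb of longest transcript. Ngrn had 493, Noa1 326 and Eral1 310. The helicases Ddx28 and Dhx30 had 235 and 250, and the methyltransferases Nsun4, Mrm1 and Mrm2 had 83.4, 154 and 154. Mterf3, Mterf4, Lrpprc and Rpusd4 ranged from 218 to 246 per kb, Mtg1, Mtg2 and Malsu1 from 144 to 161, and Fastkd2 and Tfb1m had 85.1 and 43.6. Mrm3 was listed as Rnmtl1, with a mean normalized count of 86.9.

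For scale, 77 cytosolic ribosomal protein genes had a median of 25318 per kb of longest transcript, 43.3 times that of the mitochondrial ones. The ratio was 47.7 by principal transcript and 28.1 by coding sequence. The lowest cytosolic gene had 2068 per kb, which lay within the range of the mitochondrial genes. In share of the summed level per kb, the cytosolic genes took 7.27% and the mitochondrial genes 0.232%. The 36 subunits of complex I, a respiratory complex of which the mitochondrial ribosome makes some core subunits, had a median of 2288 per kb, 3.92 times that of the mitochondrial ribosomal proteins, 5.30 times by principal transcript and 3.11 times by coding sequence.

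The 77 genes lie on 17 chromosomes of GRCm38 (mm10), with 10 on chromosome 11, 8 on chromosome 17, 7 on chromosome 6 and 6 on chromosome 7. They do not form clusters. Within 100 kb of each other lie only Mrpl46 (chr7:78775236-78783531, minus strand) and Mrps11 (chr7:78783119-78792989, plus strand), a large and a small subunit gene whose 5′ ends overlap by 413 bases. They had 852 and 529 per kb of longest transcript. Exons of 32 of the 77 genes overlap an exon of another gene, on the opposite strand in 27 and on the same strand in 8. Whether the counting used strand is not given in the sources used here, so reads in such exons may belong to either gene. Some genes named above as high are among them. Mrps18c and Mrps24 have such an overlap on the same strand, and Mrpl18 and Mrpl43 on the opposite strand. The 45 genes free of overlap had a median of 504 per kb, against 584 for all 77.

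Many of the genes share a start region with a neighbour transcribed the other way. A start of another annotated protein-coding gene on the opposite strand lay upstream within 1 kb in 18 of the 77 genes (23.4%), against 1219 of the 11085 other listed protein-coding genes (11.0%). By subunit this was 12 of 48 large and 6 of 29 small subunit genes. The closest pairs were Mrpl54 with Apba3, 26 bases apart, and Mrps18c with Helq and Mrps34 with Eme2, both 29 bases apart. Mrpl49 starts 59 bases from Fau, which encodes a protein of the cytosolic ribosome. Mrps12 starts 172 bases from Sars2, the mitochondrial seryl-tRNA synthetase. Mrpl32 lies 75 bases from the proteasome gene Psma2.

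Promoter sequence was examined because a shared set of factors is known to act on nuclear genes of mitochondrial proteins. RefSeq windows on GRCm38.p6, from 250 bases before to 50 bases after the start site, were available for 68 of the 77 genes, 74 windows in all because Mrpl2, Mrpl48 and Mrps16 have several start sites. A gene was counted where any of its windows held a match. The genes with no window were Mrpl4, Mrpl13, Mrpl15, Mrpl19, Mrpl38, Mrpl54, Mrps28, Mrps34 and Mrps35. Both strands were searched for 6 short motifs: CCGGAAG for ETS factors (the family of NRF2/GABP), GCGCANGCG for NRF1, AAGATGGCG for YY1, GGGCGG as a GC box, CCAAT as a CCAAT box and TATAAA as a TATA box. ETS and GC box matches shared bases in Mrpl17 and Mrps16. NRF1 matches overlapped one another in Mrpl9, Mrpl32 and Mrpl39, where the motif reads nearly alike on both strands, and in Mrps26, where matches on the same strand shared bases. A match is only a run of letters, and binding was not measured.

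The promoter stretches printed here show the forms that these matches took. They are the 100 bases before the RefSeq start in the direction of the gene, chosen after the values and matches were seen, with ETS and NRF1 motifs in capitals. Mrpl43 (chr19:45006443-45006542, minus strand) and Mrpl52 (chr14:54426809-54426908, plus strand) are highly expressed genes with ETS motifs, and Mrps22 (chr9:98601680-98601779, minus strand) is a low one with the same motif close to its start. Mrpl45 (chr11:97315616-97315715, plus strand) has an NRF1 motif. Mrpl22 (chr11:58171564-58171663, plus strand) has both, and Mrpl20 (chr4:155802778-155802877, plus strand) has neither although it is among the highest genes per kb.
Mrpl43: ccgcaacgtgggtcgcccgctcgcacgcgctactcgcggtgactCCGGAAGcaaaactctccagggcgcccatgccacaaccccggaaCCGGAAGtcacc
Mrpl52: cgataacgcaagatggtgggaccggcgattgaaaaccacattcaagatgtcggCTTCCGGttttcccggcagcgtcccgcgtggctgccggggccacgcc
Mrps22: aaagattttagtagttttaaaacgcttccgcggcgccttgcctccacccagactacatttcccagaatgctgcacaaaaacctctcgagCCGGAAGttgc
Mrpl45: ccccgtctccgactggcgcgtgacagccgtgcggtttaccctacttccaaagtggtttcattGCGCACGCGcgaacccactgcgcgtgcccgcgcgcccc
Mrpl22: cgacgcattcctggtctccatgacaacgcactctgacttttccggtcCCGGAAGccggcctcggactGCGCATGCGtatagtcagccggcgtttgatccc
Mrpl20: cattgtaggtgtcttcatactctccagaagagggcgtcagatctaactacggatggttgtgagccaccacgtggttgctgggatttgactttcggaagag

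ETS motifs were found in 25 of the 68 genes (36.8%), against 20.9% of 8841 other protein-coding genes of the list and 9.93% of all 27025 genes with a window. NRF1 motifs were found in 16 (23.5%), against 15.9% and 7.03%. YY1 motifs were found in 8 (11.8%), against 3.77% and 1.64%. At least 1 of these 3 motifs was present in 41 genes (60.3%), against 35.2% and 16.5%. The share with at least 1 of them was 56.1% in cytosolic ribosomal protein genes and 50% in complex I subunits. GC boxes were found in 34 genes (50%) against 68.2% of the other listed genes, CCAAT boxes in 27 (39.7%) against 43.5%, and TATA boxes in 5 (7.35%) against 8.32%; the shares in all 27025 genes were 38.2%, 41.1% and 15.7%. The promoters were rich in CpG. In the first window of each gene, the ratio of observed to expected CpG exceeded 0.6 in 63 of 68 (92.6%). This share was 72.3% in the other listed genes, 87.7% in cytosolic ribosomal protein genes and 81.25% in complex I subunits. The median GC content was 58.2%, against 60.7% in the other listed genes.

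**Figure D3:**
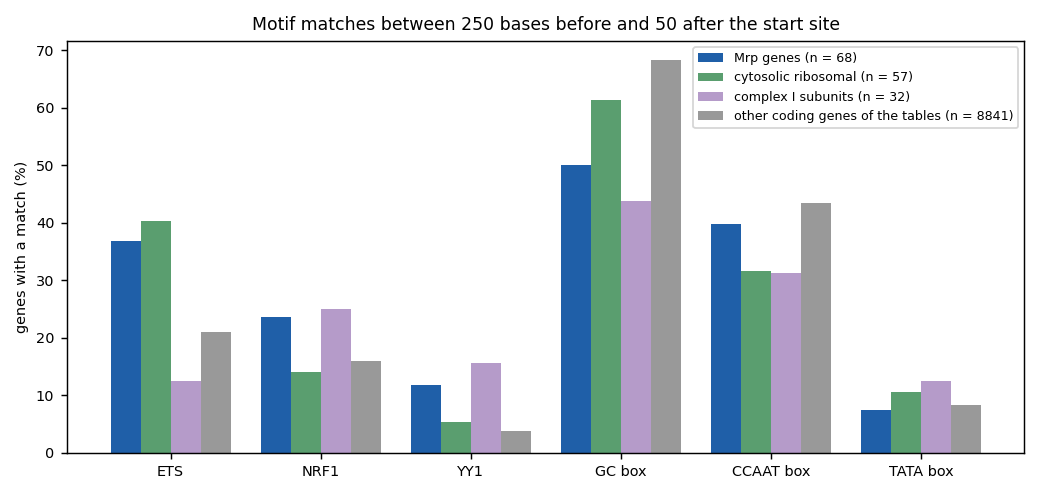
Share of genes, in percent, with a match in any window to each of 6 motifs on either strand between 250 bases before and 50 bases after the start site. Bars start at 0 and compare 68 mitochondrial ribosomal protein genes with 57 cytosolic ribosomal protein genes, 32 complex I subunits and 8841 other protein-coding genes; ETS matches were about as common in both ribosomal groups (36.8% and 40.4%) and were found in 12.5% of complex I genes.

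The subunits carried the motifs in different proportions, with few genes behind each. ETS motifs were found in 14 of 42 large and 11 of 26 small subunit genes, NRF1 motifs in 12 and 4, and YY1 motifs in 4 and 4. GC boxes were present in 17 of 42 large and 17 of 26 small subunit genes. Both ETS and NRF1 motifs were present in Mrpl17, Mrpl22, Mrpl57, Mrps18b, Mrps21 and Mrps26, and both ETS and YY1 in Mrps18a and Mrps27. Cytosolic ribosomal protein genes had ETS motifs in 40.4%, NRF1 in 14.0% and YY1 in 5.26%, whereas complex I subunits had 12.5%, 25.0% and 15.6%.

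ETS and YY1 matches lay close to the start site. Of 29 ETS matches, 26 began no more than 100 bases before the start, with a median of 19 bases before it. Of 8 YY1 matches, 7 lay in the same interval, and their median was 18.5 bases after the start. NRF1 matches lay further upstream, with a median of 49 bases before the start and 19 of 25 in that interval. None of the 5 TATA matches lay at the place just upstream of the start where a TATA box acts, the nearest beginning 68 bases before it.

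**Figure D4:**
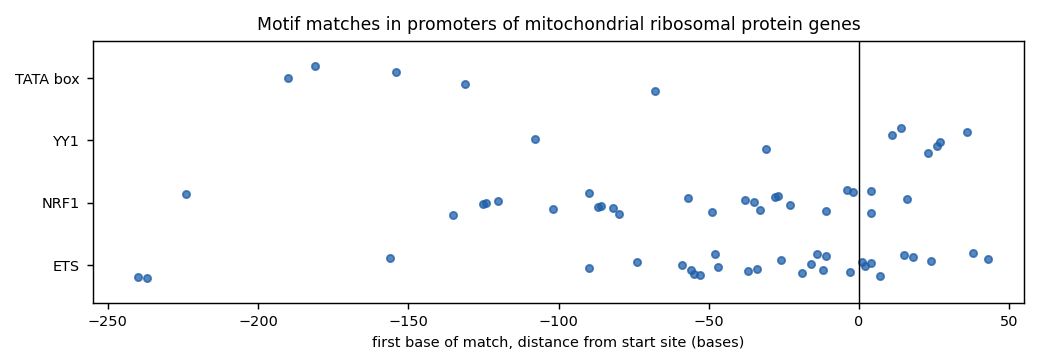
Position of each ETS, NRF1, YY1 and TATA box match in the windows of the 68 genes, as the distance in bases of its first base from the start site of its window (vertical line; negative values lie before the start). Each point is a match and points are offset vertically only to separate them; 26 of 29 ETS and 7 of 8 YY1 matches begin after the position 100 bases before the start.

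Genes with any of the ETS, NRF1 and YY1 motifs had a median of 702 per kb of longest transcript (41 genes) and those with none 302 per kb (27 genes). By principal transcript the medians were 947 and 459, and undivided by length 1136 and 846 mean normalized counts. Both sets spanned high and low genes: Mrpl20 and Mrpl41, without any of the motifs, were among the 5 highest large subunit genes per kb of longest transcript, and Mrps22, with an ETS motif, was the lowest small subunit gene on that scale, whereas Mrps6, with none of the motifs, was lowest by principal transcript, by coding sequence and undivided by length. Taken singly, ETS motifs went with 679 against 529 per kb, NRF1 motifs with 817 against 530, and YY1 motifs with 444 against 671. By principal transcript the ETS medians were close, at 717 against 705, the NRF1 medians were 881 against 698, and the YY1 order turned, to 873 against 711. Undivided by length the ETS order turned, to 1012 against 1098 mean normalized counts.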

How the data were processed

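Polyadenylated RNA of 10 neutrophil libraries was sequenced. Per the study's methods and the submitters' processing notes, the authors removed adapters and low-quality bases (cutadapt 4.4), mapped and counted reads on mm10 (STAR 2.7.10b), derived 4 RUVSeq covariates for unwanted variation, and normalized and modelled the counts in DESeq2 1.26.0. The gene annotation and strandedness of counting are not given in the sources used here. The deposited values used here are a signal, the authors' mean normalized count per gene over all libraries. The tables also hold the authors' fold changes, standard errors, test statistics and p-values for 4 comparisons, which were not used. A count model was planned only for counts per library, so no test was made. Depth per library is unknown, and no interval can be given for the mean normalized counts.

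Members were matched by symbol. Lengths came from GENCODE M21 (GRCm38), principal transcripts from its APPRIS tags, and promoter windows from RefSeq on GRCm38.p6, of which 68 of 74 windows had 20 bases after the start found in a transcript of the same gene. Values were computed with Python 3.11.15, numpy 2.4.6 and pandas 2.3.3, and drawn with matplotlib 3.10.9. The ratio of subunit medians was tested on simulated levels, and the motif search on made sequences with planted motifs. The other steps were not tested in this way. Named genes were the 5 highest and 5 lowest per kb in each subunit, the Mrps18 family, genes whose symbol and place differ, stalk, tunnel and decoding-site genes, and the lists of mitochondrial translation and cell markers, of which some markers of other cells are not reported here. Genes with extreme ranks on all lengths, neighbours and printed stretches were chosen after their values were seen. The members and lists were chosen with earlier results of these data known. Alternatives changed the length, the filter on low values, the summary, the matching and the subunit assignment.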

Additional observations from a re-analysis of the deposited data

How the results depend on the processing

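The median level of the 77 genes, 584 per kb of longest transcript, was 679 by principal transcript, 1343 by shortest coding transcript and 1885 by coding length. It was 596 both with genes of at least 100 mean normalized counts only and with the 5 mitochondrial ribosomal proteins without Mrp symbols added. The ratio of large to small subunit medians, 1.31, was 1.41 by principal transcript, 1.35 as a ratio of geometric means, 1.30 with Mrps30 and Mrps18a in the large subunit and Mrps36 left out, 1.31 with genes of at least 100 mean normalized counts, 1.03 without division by length, 1.002 by shortest coding transcript and 0.875 by coding length. In genes free of exon overlap, an alternative chosen after seeing the data, the level was 504 and the ratio 0.964. The ratio stayed above 1 in 6 of 8 alternatives. No paired analysis was possible because each gene has a single value pooled over all libraries. The count model and the replicate block planned for counts per library were not run for the same reason. Error between clones cannot be read from the pooled value.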
